A study of Mus musculus with 4 samples.

Results

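The genes described here encode enzymes that clear odorants, drugs and other small lipophilic molecules, and they were measured in sorted olfactory sensory neurons of Nd1 and control mice. They were chosen by symbol from the deposited table as cytochrome P450s (Cyp), flavin monooxygenases (Fmo), aldehyde dehydrogenases (Aldh), glutathione S-transferases of classes alpha, mu, pi, theta, omega and zeta (Gst), UDP-glucuronosyltransferases (Ugt) and sulfotransferases (Sult). This gave 175 symbols of 22110 in all, over 181 of 28168 loci. They comprise 98 Cyp, 7 Fmo, 20 Aldh, 19 Gst, 13 Ugt and 18 Sult entries. Of the 175, 5 entries join several genes in 1 locus and 5 names mark pseudogenes. The choice went by symbol, except that a symbol with several loci kept the locus of the highest mean level.

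The Nd1 group pools 2 libraries, from mice 212 days old (replicate 1) and 87 days old (replicate 2), both Nd1+/- with OMP-IRES-tTA+/- and with OMP-IRES-GFP+/-. The control group pools 2 libraries of the same ages with different genotypes. Replicate 1 was Nd1+/- and OMP-IRES-tTA-/-, replicate 2 was Nd1-/- and OMP-IRES-tTA+/-, and both were OMP-IRES-GFP+/-. All 4 libraries thus carried the GFP reporter at Omp, the gene of the olfactory marker protein, and each control lacked either the tTA activator or the Nd1 allele. Double-stranded RNA encoded in the genome is the subject given in the title of the series. The activator sits at Omp, which mature olfactory neurons transcribe. The number of mice behind each library is not given in the labels, and the 2 libraries of a group differ in age.

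The nasal mucosa is rich in these enzymes. The first step is an oxidation, by a P450, a flavin monooxygenase or a dehydrogenase, and the second is the attachment of glutathione, glucuronic acid or sulfate, which makes the product soluble and easier to export. In the olfactory epithelium much of this work is done by sustentacular cells, which support the neurons, and by Bowman glands, which secrete the mucus. Some members serve other ends, such as retinoic acid breakdown (Cyp26 enzymes) or cholesterol turnover in neurons (Cyp46a1).

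Each gene has 1 pooled value per group in FPKM, a level scaled by transcript length and mapped fragments. No spread between libraries can be given, and the error printed with a log2 ratio is the standard error (SE) implied by the statistic in the authors' deposited table. Rose and fell are used only for genes that passed q under 0.05 in the authors' Cuffdiff test. Sorted cells were measured in bulk, so fewer cells of a type and less RNA per cell cannot be told apart. Most markers of mature neurons were abundant in either group. In Nd1, 11 of 15 tested fell and 4 did not pass, among them Slc17a6 (130 FPKM in Nd1, 134 in control). The largest falls were those of Omp and Stoml3, a cilia protein of these neurons. Omp stood at 605 FPKM in Nd1 against 4087 FPKM in control, and Stoml3 at 1254 FPKM in Nd1 against 3425 FPKM in control. Control replicate 1 lacked the tTA allele at Omp that both Nd1 libraries carried. What part this difference in Omp alleles had in the Omp level cannot be told apart.

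Most of the enzyme genes were silent or nearly so. In 90 of 175 the mean of the groups was under 0.1 FPKM, and 49 were listed at 0 in both groups. Another 48 had a mean of at least 1 FPKM and 17 had a mean of at least 10. The authors tested 72 of the 175, their test failed for Aldh18a1, and 102 were not tested. The summed level of all members was 819 FPKM in Nd1 against 844 FPKM in control. The most abundant 3, Sult1d1, Sult4a1 and the joined locus of Ugt2a1 and Ugt2a2, held 53.2% of that sum in Nd1 and 51.7% in control. Sult1d1 ranked 140th among all loci in Nd1 and 145th in control.

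In Nd1, 11 enzyme genes rose and 12 fell, while 49 tested genes did not pass. That is 31.9% of the tested members, beside 34.4% called among all 14841 tested loci and 30.3% among the 13802 that are not odorant receptors. By direction, 15.3% of members rose and 16.7% fell, against 16.2% and 14.1% of tested loci other than odorant receptors, so the share called lay near the background in either direction. The median log2 ratio on the FPKM + 1 scale was -0.089 over the 64 tested members whose mean reached 0.5 FPKM. Over all loci chosen in the same way it was -0.060, and -0.037 with odorant receptors left out. After quantile normalization the median over members was 0.0033, so it gives no direction. Changes were mostly small. Of the 11 rises 5 reached 2-fold, as did 3 of the 12 falls, and the median log2 ratio was 0.91 among rises and -0.87 among falls. None of these 8 was among the 16 tested genes whose mean reached 10 FPKM. A further 7 members had an unadjusted p under 0.05 but missed the threshold after adjustment, which leaves 30 of 72 at that unadjusted level.

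**Figure D1:**
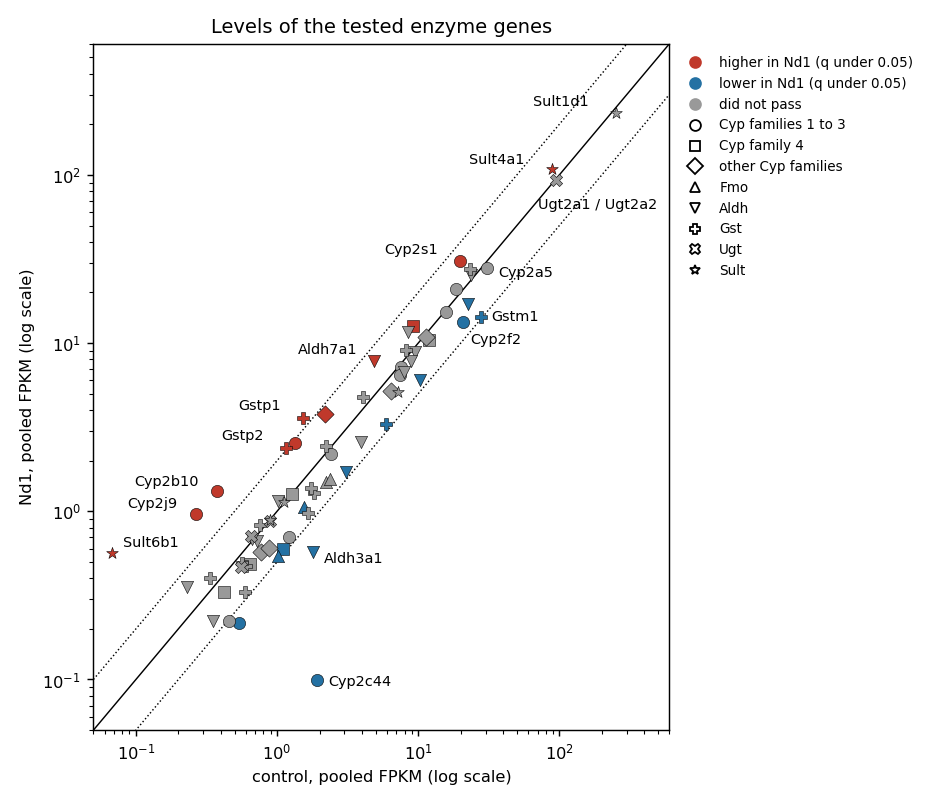
Pooled FPKM of the 72 tested enzyme genes in Nd1 (vertical, log scale) and in control (horizontal, log scale). Marker shape gives the enzyme family and colour the authors' call. The solid line is equality and the dotted lines are 2-fold. Genes above 10 FPKM lie between the dotted lines, and Cyp2c44 and Sult6b1 stand farthest from equality.

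Marker genes of several cell types were read beside the enzymes, among them those of sustentacular cells and Bowman glands. Of 14 matched sustentacular markers that are not enzymes of the present set, 13 were tested, 2 rose and 6 fell, with a summed level of 99.1 FPKM in Nd1 against 126 FPKM in control. None was listed at 0, and the range was 0.14 to 32.2 FPKM in Nd1 against 0.21 to 50.2 FPKM in control. The intermediate filament gene Krt18 was at 8.97 FPKM in Nd1 against 15.5 in control, Krt8 at 3.90 against 6.48 and the transcription factor Sox2 at 1.76 against 3.12, all lower. Cldn8, a tight junction gene, rose to 3.42 FPKM in Nd1, against 1.44 in control, and Sec14l3 rose to 24.0 FPKM in Nd1, against 19.1 in control. Cbr2 fell as well and had the highest level of these markers, 32.2 FPKM in Nd1 against 50.2 FPKM in control. It is also counted among the other detoxifying enzymes below, so the marker sum is not free of such enzymes. Epas1, a hypoxia-inducible factor, fell to 4.50 FPKM in Nd1, against 7.42 FPKM in control.

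Gland and respiratory markers fell in 7 of 10 tested genes and 1 rose, with a sum of 86.1 FPKM in Nd1 against 217 FPKM in control. Most of that sum was Bpifa1, a secreted airway protein, at 68.1 FPKM in Nd1 and 184 FPKM in control. Obp1a, an odorant-binding protein, was listed at 0 in control and at 1.98 FPKM in Nd1. Horizontal basal cell markers fell in 5 of 5 tested genes (sum 7.39 FPKM in Nd1 against 15.1 in control), among them Krt5 (3.86 FPKM in Nd1, 8.03 in control). Of the glial markers, Mbp rose and 6 of 7 did not pass. Macrophage markers lay between 0.10 and 0.47 FPKM in Nd1 and between 0.070 and 0.24 FPKM in control, and the 1 tested did not pass. Neutrophil markers fell in 8 of 9 tested genes, with a sum of 7.18 FPKM in Nd1 against 34.4 FPKM in control. What part such cells had in the enzyme values was not tested.

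**Figure D2:**
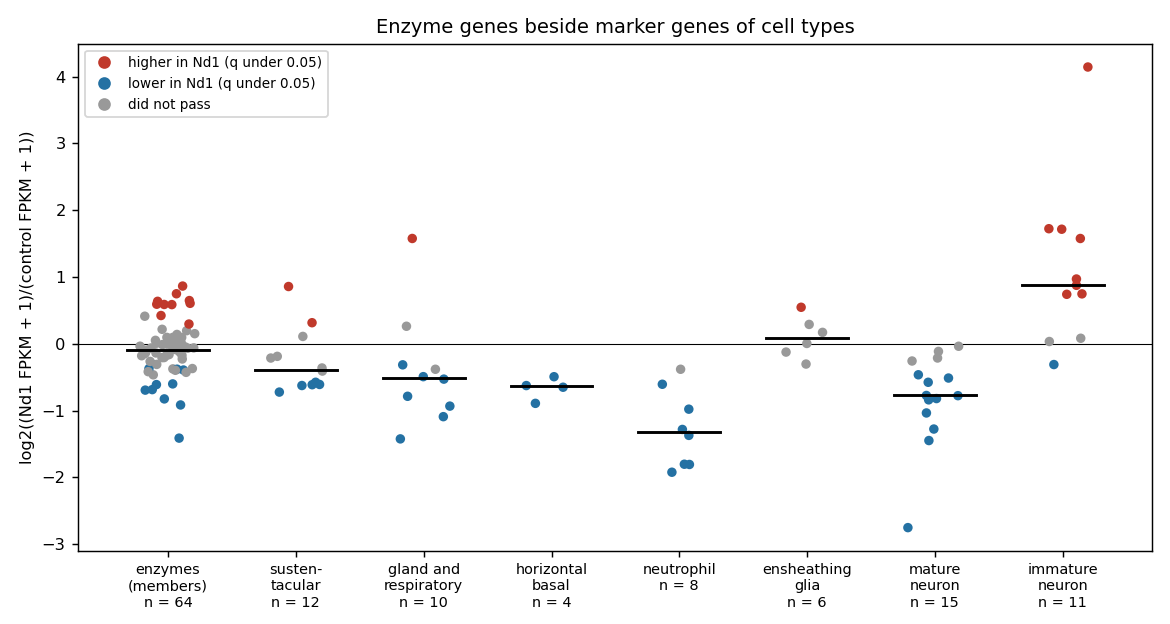
Log2 ratio of Nd1 over control on the FPKM + 1 scale for tested enzyme genes and for marker genes of 7 cell types, where the mean reached 0.5 FPKM. Each point is a gene, colour gives the authors' call and the black bar is the median. The enzyme median of -0.089 lies nearer to 0 than that of the sustentacular (-0.39) or gland (-0.51) markers, and immature neuron markers lie highest with a median of 0.88.

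Cytochrome P450s of families 1 to 3, the main oxidizers of foreign compounds, kept an even sum of 131 FPKM in either group. Of 61 genes only 15 were tested, of which 4 rose and 3 fell. Cyp2s1, a P450 of epithelia outside the liver, was the most abundant that rose, at 30.8 FPKM in Nd1 against 19.9 FPKM in control. Its log2 ratio was 0.63 ± 0.12 (SE) in the authors' deposited table (Cuffdiff q = 2.46e-06). Cyp2j6 and Cyp2j9, which belong to a subfamily known for oxidizing arachidonic acid, rose together. Cyp2j6 was at 2.54 FPKM in Nd1 and 1.35 FPKM in control, and Cyp2j9 at 0.97 FPKM in Nd1 and 0.26 FPKM in control. Cyp2b10, known in mouse liver as a gene induced by phenobarbital, rose to 1.31 FPKM in Nd1, against 0.38 FPKM in control. Cyp2b10, Cyp2j9 and, below, Cyp2d22 and Sult6b1 lie under the level set for naming and are named after their values were seen.

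The steepest fall of all members was that of Cyp2c44, another P450 that oxidizes arachidonic acid (mm9 chromosome 19, 44079512 to 44103737). It was at 0.099 FPKM in Nd1 against 1.93 FPKM in control, a log2 ratio of -4.29 ± 0.62 (SE) in the authors' deposited table (Cuffdiff q = 5.02e-11). All 14 other Cyp2c entries of chromosome 19, among them a joined locus, were untested. Cyp2f2, which in mouse airways activates naphthalene, fell to 13.3 FPKM in Nd1, against 20.9 FPKM in control, with a log2 ratio of -0.65 ± 0.17 (SE) in the authors' deposited table. Cyp2d22 fell to 0.22 FPKM in Nd1, against 0.54 FPKM in control.

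Of 8 tested P450s on a list of nasal mucosa enzymes, Cyp2s1 rose, Cyp2f2 and Cyp4b1 fell, and 5 did not pass. Cyp2a5, a coumarin hydroxylase, was at 28.0 FPKM in Nd1 and 30.9 FPKM in control, with a 95% interval of the log2 ratio from -0.43 to 0.15. Cyp2g1, known from rodent olfactory mucosa, was at 15.3 FPKM in Nd1 and 15.8 FPKM in control, with an interval from -0.38 to 0.30. Cyp2a4, a steroid hydroxylase, was at 7.17 FPKM in Nd1 and 7.53 FPKM in control, with an interval from -0.51 to 0.37. The intervals of these 3 genes, as implied by the authors' statistic, hold no change as large as 2-fold. The spread between libraries is not known. Cyp1a2 was at 2.18 FPKM in Nd1 and 2.40 FPKM in control, and Cyp26b1 is described below. Outside that list, Cyp2j12 did not pass either, at 20.8 FPKM in Nd1 and 18.7 FPKM in control.

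Cyp2a4 and Cyp2a5 are so alike that fragments can be split between them in ways the table does not show. Their coding sequences in the GENCODE transcripts differ at 23 of 1482 bases, 98.4% identity, with an identical run of 216 bases. The 60 coding bases in which they differ most, numbered 596 to 655 from the start codon, show how little separates a fragment of one from a fragment of the other. Capitals mark the 4 differing bases.
Cyp2a4: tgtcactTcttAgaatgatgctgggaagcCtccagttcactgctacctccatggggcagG
Cyp2a5: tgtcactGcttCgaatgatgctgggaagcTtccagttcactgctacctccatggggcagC

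P450s of family 4 act mainly on fatty acids. Of 19 entries 6 were tested. The joined locus of Cyp4v3 and the plasma kallikrein gene Klkb1 rose to 12.6 FPKM in Nd1, against 9.17 FPKM in control, and which gene gave the reads cannot be read from the table. Cyp4b1, which in rodent lung activates the toxin 4-ipomeanol, fell to 0.60 FPKM in Nd1, against 1.10 FPKM in control, with q = 0.0427 in the authors' deposited table. Cyp4f13 (10.4 FPKM in Nd1, 11.9 in control) and Cyp4f16 (1.27 FPKM in Nd1, 1.28 in control) did not pass.

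Of 18 P450s of the other families 5 were tested and Cyp46a1 rose. This cholesterol 24-hydroxylase, known from neurons, was at 3.80 FPKM in Nd1 and 2.19 FPKM in control, a log2 ratio of 0.79 ± 0.27 (SE) in the authors' deposited table (Cuffdiff q = 0.0123). Cyp26b1, which breaks down retinoic acid, was at 5.19 FPKM in Nd1 and 6.43 FPKM in control and did not pass (interval -0.65 to 0.033). Cyp20a1, an orphan P450 of unknown substrate, was at 10.8 FPKM in Nd1 and 11.4 FPKM in control. The steroid-making P450s Cyp11a1 and Cyp17a1 were untested, at 0 and 0.052 FPKM in Nd1 against 0.055 and 0.018 FPKM in control.

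Flavin monooxygenases, which oxidize nitrogen and sulfur atoms of foreign compounds, were low. The log2 ratio lay below 0 in 4 of 4 tested genes, and in 47 of all 72 tested members. The share of all tested loci below 0 was not counted, so the 47 gives no direction. Their median was itself below 0, at -0.060 on the FPKM + 1 scale. The Fmo sum was 4.79 FPKM in Nd1 against 7.34 FPKM in control. Sustentacular, gland, horizontal basal, neutrophil and mature neuron marker sums were lower in Nd1 as well, and a link was not tested. Of the 7 Fmo genes, Fmo1 fell to 0.54 FPKM in Nd1, against 1.01 FPKM in control. Fmo5 fell to 1.07 FPKM in Nd1, against 1.54 FPKM in control. Fmo2 was at 1.50 FPKM in Nd1 and 2.23 FPKM in control (q = 0.0514 in the authors' deposited table) and Fmo6 at 1.55 FPKM in Nd1 and 2.35 FPKM in control, and neither passed. Both calls sat close to the threshold, with q = 0.0393 for Fmo1 and q = 0.0309 for Fmo5 in the authors' deposited table.

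Of 20 aldehyde dehydrogenases 16 were tested, 1 rose and 4 fell. Their sum was 115 FPKM in Nd1 against 127 FPKM in control. Aldh3a1, which in mouse cornea and other epithelia clears aldehydes from lipid oxidation, fell furthest, to 0.57 FPKM in Nd1 against 1.79 FPKM in control, with a log2 ratio of -1.64 ± 0.35 (SE) in the authors' deposited table (Cuffdiff q = 2.13e-05). Aldh2, the mitochondrial enzyme of acetaldehyde clearance, fell to 6.03 FPKM in Nd1, against 10.4 FPKM in control. Aldh1l1, a folate enzyme used as an astrocyte marker in brain, fell to 1.70 FPKM in Nd1, against 3.10 FPKM in control. Aldh3b1 fell to 17.1 FPKM in Nd1, against 22.4 FPKM in control (q = 0.0409 in the authors' deposited table).

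The single rise in this family was Aldh7a1, an enzyme of lysine breakdown, at 7.78 FPKM in Nd1 against 4.84 FPKM in control, with a log2 ratio of 0.69 ± 0.19 (SE) in the authors' deposited table. Aldh3a2, the fatty aldehyde dehydrogenase, had the highest mean of the family and did not pass, at 25.3 FPKM in Nd1 and 23.6 FPKM in control (interval -0.17 to 0.37). Among the makers of retinoic acid, Aldh1a1 was at 2.59 FPKM in Nd1 and 3.95 FPKM in control (q = 0.0671 in the authors' deposited table). Its close relative Aldh1a7, 91.6% identical over the coding bases, was at 0.66 FPKM in Nd1 and 0.72 FPKM in control. Aldh1a2 and Aldh1a3 were not tested, at 0.048 and 0.14 FPKM in Nd1 against 0.068 and 0.10 FPKM in control. Aldh18a1, an enzyme of proline synthesis, was at 15.9 FPKM in Nd1 and 19.0 FPKM in control, and its test failed.

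**Figure D3:**
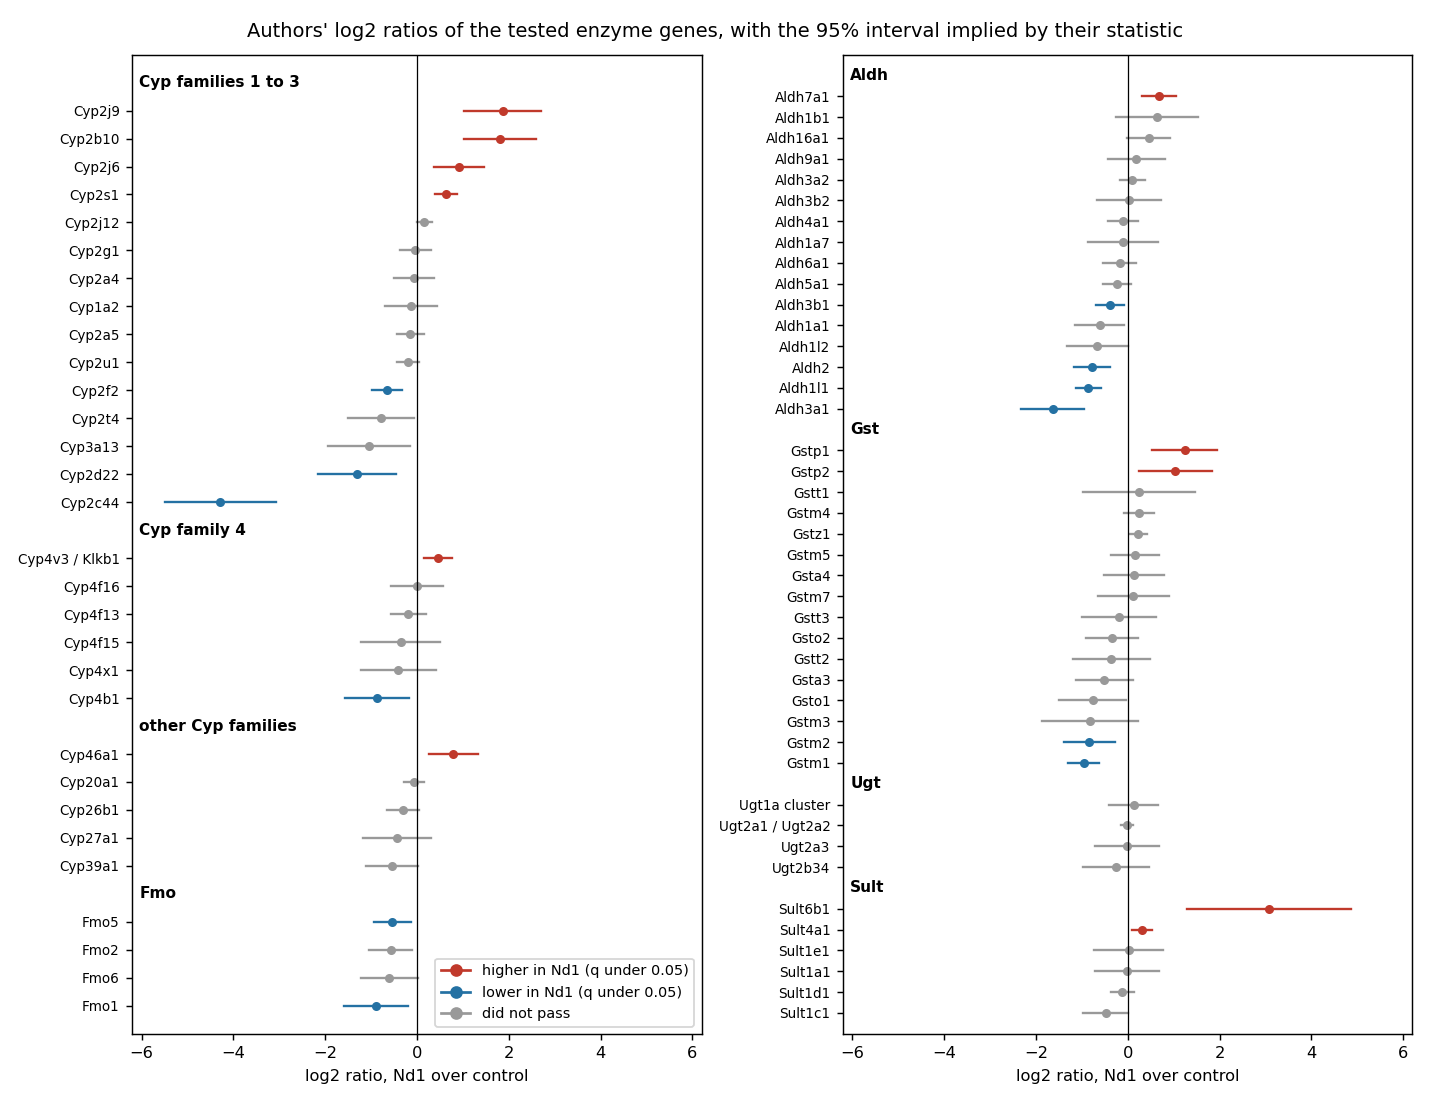
Log2 ratio of Nd1 over control in the authors' deposited table for the 72 tested enzyme genes, by family, with the 95% interval implied by the authors' statistic. Red genes rose, blue genes fell and grey genes did not pass. The tested flavin monooxygenases all lie left of 0, as do 47 of the 72 genes shown. Both pi-class transferases (Gstp1 and Gstp2) lie right of 0. The abundant Ugt2a1 and Ugt2a2 locus has an interval from -0.16 to 0.11.

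Among glutathione S-transferases 16 of 19 genes were tested, 2 rose and 2 fell. The 2 genes of class pi rose, and no difference between classes was tested. The genes that fell are of class mu, and the 8 tested genes of classes alpha, theta, omega and zeta did not pass. Gstp1 was at 3.60 FPKM in Nd1 against 1.53 FPKM in control, with a log2 ratio of 1.24 ± 0.36 (SE) in the authors' deposited table (Cuffdiff q = 0.00297). Gstp2 was at 2.39 FPKM in Nd1 against 1.16 FPKM in control, with a log2 ratio of 1.04 ± 0.41 (SE) in the authors' deposited table (Cuffdiff q = 0.0349). The summed level of the class was 5.99 FPKM in Nd1 and 2.69 FPKM in control.

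In class mu 2 of 6 tested genes fell. The log2 ratio lay above 0 in 3 of the 6, and the class median was 0.054 on the FPKM + 1 scale. Gstm1, the most abundant gene of the class, fell to 14.2 FPKM in Nd1, against 27.7 FPKM in control. Its log2 ratio was -0.96 ± 0.17 (SE) in the authors' deposited table (Cuffdiff q = 3.16e-07). Gstm2 fell to 3.29 FPKM in Nd1, against 5.91 FPKM in control (q = 0.0109 in the authors' deposited table). Gstm4 (4.76 FPKM in Nd1, 4.03 in control), Gstm5 (9.12 FPKM in Nd1, 8.19 in control), Gstm7 and Gstm3 did not pass. The class sum, lower through Gstm1 and Gstm2, was 32.6 FPKM in Nd1 against 47.2 FPKM in control. Marker sums of several cell types were lower in Nd1 as well, and a link was not tested. Gstz1, an enzyme of tyrosine breakdown, had the highest mean of the Gst genes. It was at 27.4 FPKM in Nd1 and 23.4 FPKM in control (q = 0.0546 in the authors' deposited table).

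The promoters of these pairs are shown because the 2 genes of each pair moved together. Each is the RefSeq window on GRCm38.p6 from 250 bases before to 50 bases after a listed start, on the minus strand, read 5′ to 3′. They lie at chr19:4037863-4038162 (Gstp1), chr19:4042172-4042471 (Gstp2), chr3:108017769-108018068 (Gstm1, the downstream of 2 listed starts) and chr3:107986371-107986670 (Gstm2). Capitals mark the motifs found, TGAGTCA in the Gstp pair and GCGTG in Gstp1 and Gstm1.
Gstp1 promoter: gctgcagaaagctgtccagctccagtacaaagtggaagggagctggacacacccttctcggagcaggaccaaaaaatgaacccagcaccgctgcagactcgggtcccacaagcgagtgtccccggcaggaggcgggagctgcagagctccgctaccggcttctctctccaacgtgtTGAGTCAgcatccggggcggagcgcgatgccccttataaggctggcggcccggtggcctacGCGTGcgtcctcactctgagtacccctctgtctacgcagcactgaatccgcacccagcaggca
Gstp2 promoter: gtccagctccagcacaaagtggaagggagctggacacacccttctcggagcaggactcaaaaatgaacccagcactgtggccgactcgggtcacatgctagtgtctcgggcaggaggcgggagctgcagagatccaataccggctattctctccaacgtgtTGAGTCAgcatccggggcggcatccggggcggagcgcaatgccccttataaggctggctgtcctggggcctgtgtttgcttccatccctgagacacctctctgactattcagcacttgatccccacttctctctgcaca
Gstm1 promoter: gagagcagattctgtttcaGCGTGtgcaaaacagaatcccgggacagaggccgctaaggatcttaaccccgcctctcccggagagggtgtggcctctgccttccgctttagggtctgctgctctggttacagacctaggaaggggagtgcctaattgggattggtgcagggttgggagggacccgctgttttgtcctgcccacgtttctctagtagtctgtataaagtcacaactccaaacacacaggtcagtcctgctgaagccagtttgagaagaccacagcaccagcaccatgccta
Gstm2 promoter: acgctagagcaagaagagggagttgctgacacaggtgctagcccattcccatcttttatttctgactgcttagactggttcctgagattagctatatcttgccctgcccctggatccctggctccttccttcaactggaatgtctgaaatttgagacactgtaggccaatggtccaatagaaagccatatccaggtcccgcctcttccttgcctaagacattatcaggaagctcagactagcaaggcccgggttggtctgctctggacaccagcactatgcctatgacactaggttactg

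Over the aligned bases these promoters were 86.2% identical in the Gstp pair and 59.5% identical in the Gstm pair. The AP-1 motif TGAGTCA, searched on both strands, began 74 bases before the start in Gstp1 and 89 bases before it in Gstp2, and it was absent from this window in Gstm1 and Gstm2. It was added to the search after the sequences were seen, and 5.20% of all 32851 promoters of the table hold it. The core of the xenobiotic response element, GCGTG on either strand, was found in Gstp1 and Gstm1 and in 32.4% of all promoters. Neither the core of the antioxidant response element, TGACNNNGC on either strand (12.4% of all promoters), nor the palindromic EBF (Olf-1) motif of olfactory neuron genes (0.904% of all promoters), was found in these 4 windows. Only these exact letters were searched, so variant forms of the elements could be missed. TGAGTCAGC, present in both Gstp windows, differs from TGACNNNGC at a single base. Of 165 promoters matched to 134 members, 34 held GCGTG, 13 held TGACNNNGC, 12 held TGAGTCA and 0 held the EBF motif.

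Gstp1 and Gstp2 are near copies, so their levels are uncertain relative to each other and the rise of both may rest on shared fragments. Their coding sequences differ at 12 of 630 bases, 98.1% identity, with an identical run of 300 bases. Gstm1 and Gstm2 were 85.9% identical, with a longest identical run of 60 bases. The first 60 coding bases hold 6 of the 12 differences of the Gstp pair, in capitals here.
Gstp1 coding: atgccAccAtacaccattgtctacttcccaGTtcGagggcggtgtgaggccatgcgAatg
Gstp2 coding: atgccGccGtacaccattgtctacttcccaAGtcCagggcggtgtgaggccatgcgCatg

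UDP-glucuronosyltransferases did not pass in any of the 4 tested loci. The joined locus of Ugt2a1 and Ugt2a2, the olfactory enzymes that attach glucuronic acid to odorants, was at 93.2 FPKM in Nd1 and 94.8 FPKM in control. It held 97.3% of the family sum in Nd1 and 97.4% in control. Its log2 ratio was -0.025 ± 0.068 (SE) in the authors' deposited table, and the interval from -0.16 to 0.11 was the narrowest among the tested members. Ugt2a3 was at 0.88 FPKM in Nd1 and 0.89 FPKM in control, and the joined Ugt1a locus at 0.72 FPKM in Nd1 and 0.66 FPKM in control. Of the 13 entries 6 were listed at 0 in both groups.

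Sulfotransferases held the most abundant enzyme of the set. Sult1d1, which adds sulfate to catecholamines and small phenols, was at 234 FPKM in Nd1 and 254 FPKM in control and did not pass, with an interval from -0.36 to 0.13. Sult4a1, a sulfotransferase of neurons whose substrate is not settled, rose to 108 FPKM in Nd1, against 88.2 FPKM in control. Its log2 ratio of 0.30 ± 0.11 (SE) in the authors' deposited table was the smallest among the members that rose (Cuffdiff q = 0.0235). Sult6b1, a little-studied member, rose to 0.57 FPKM in Nd1, against 0.068 FPKM in control, with a log2 ratio of 3.07 ± 0.91 (SE) in the authors' deposited table, the largest ratio of the rises and also the widest error. Sult1c1 was at 5.15 FPKM in Nd1 and 7.21 FPKM in control on chromosome 17, and at 4.47 FPKM in Nd1 and 6.66 FPKM in control in a second copy on an unplaced part of that chromosome, and neither passed. Sult2a genes were listed at 0 throughout.

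Many of these genes stand in tandem arrays. With at most 500 kb between neighbours and at least 3 members each, 14 arrays held 111 of the 175 members on mm9, and neighbours in 1 array differed widely in level and in call. The array of Cyp2 genes on chromosome 7 (26587490 to 27943583) held 13 members with a sum of 96.8 FPKM in Nd1 and 96.7 FPKM in control. Within it Cyp2s1 and Cyp2b10 rose, Cyp2f2 fell, and Cyp2a4, Cyp2g1, Cyp2a5 and Cyp2t4 did not pass. The other 6 were untested, and of these Cyp2b9, Cyp2b23, Cyp2a22 and Cyp2a12 were listed at 0 in both groups.

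On chromosome 5 (87318794 to 88020636) 12 Ugt2 and Sult1 entries summed to 330.1 FPKM in Nd1 and 352 FPKM in control. The Ugt2a1 and Ugt2a2 locus and Sult1d1 stood there beside Sult1b1 (0.13 FPKM in Nd1, 0.12 in control), which lies between them, and Sult1e1 (1.14 FPKM in Nd1, 1.12 in control). None of the 5 tested members of that array passed. The Gstm array of chromosome 3 (107680148 to 107847777) held the neighbours Gstm2 and Gstm1, which fell, between Gstm3 and Gstm4, which did not pass. On chromosome 19 (3913491 to 4042221) Aldh3b1 fell while Gstp1 and Gstp2 of the same array rose. Arrays of Cyp3a genes on chromosome 5 and of Sult2a genes on chromosome 7, with 7 members each, were at 0 in both groups.

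**Figure D4:**
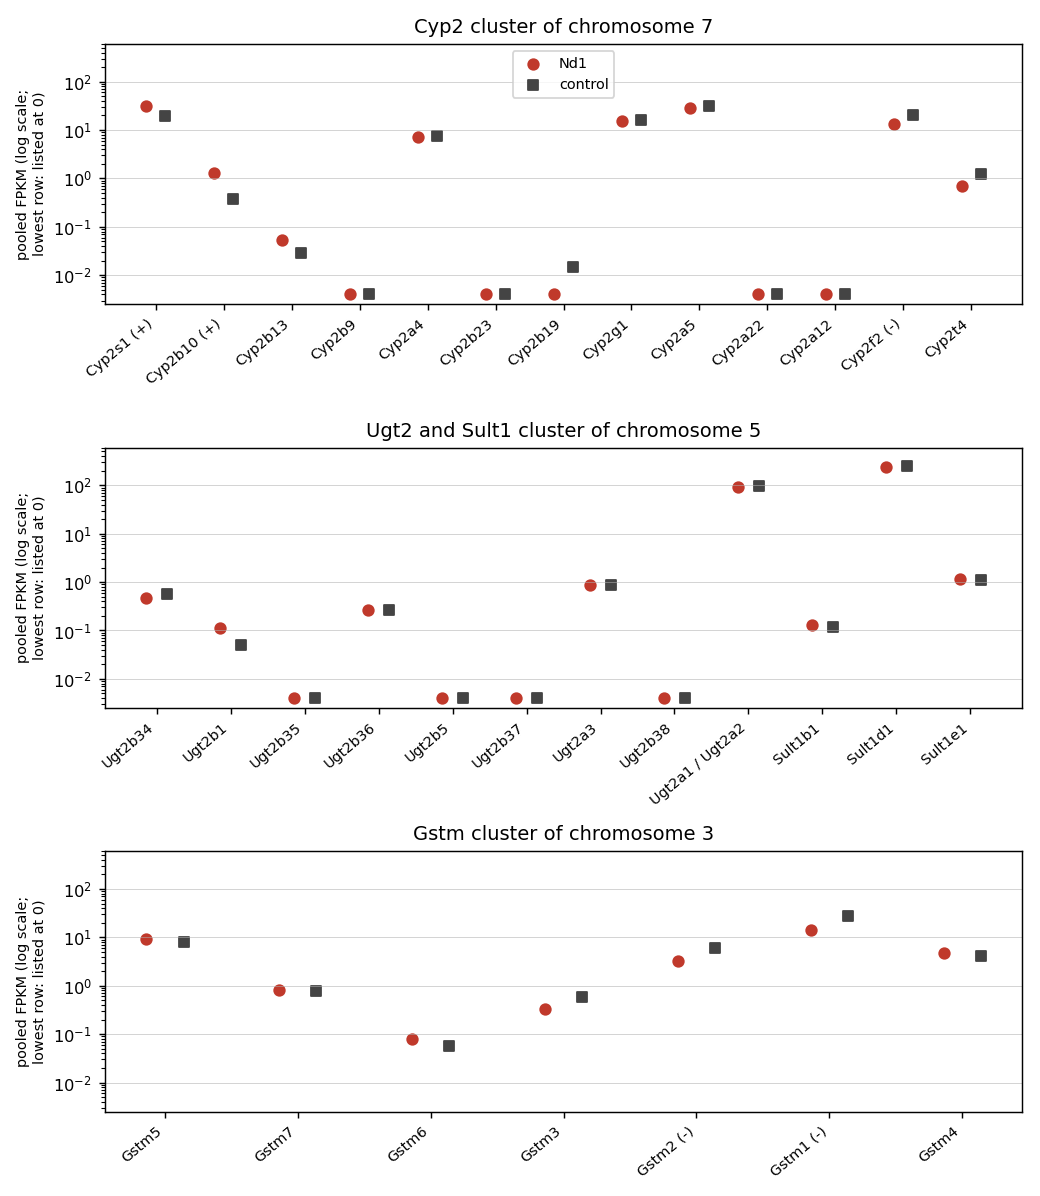
Pooled FPKM (vertical, log scale, with values listed at 0 on the lowest row) of the members of 3 gene arrays in their order on the chromosome, Nd1 as red circles and control as dark grey squares. A plus sign marks genes that rose and a minus sign genes that fell. Within an array the levels run from 0 to 234 FPKM in Nd1 and to 254 FPKM in control, and rises and falls stand beside genes that did not pass.

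Enzymes known from nasal mucosa were also read as a group. Of 22 such symbols 20 were matched singly and 18 were tested, of which 2 rose (Cyp2s1 and Gstp1) and 6 fell (Gstm1, Aldh3a1, Gstm2, Cyp2f2, Cyp4b1 and Fmo1). Their median log2 ratio on the FPKM + 1 scale was -0.32, beside -0.39 over the sustentacular markers. That median leaves out Ugt2a1 and Ugt2a2, which share a joined locus. The locus was tested and did not pass, with a log2 ratio of -0.025 on the same scale. Over all tested loci of at least 0.5 FPKM mean the median was -0.060, and -0.037 with odorant receptors left out. The list was chosen with earlier results of these data known. For these and the lists that follow, the shares to read against are 16.2% higher and 14.1% lower among tested loci other than odorant receptors. A list drawn up for endogenous lipids and steroids had 21 matched members and 9 tested ones, of which Cyp46a1 and Sult4a1 rose and 0 fell. It holds enzymes of unsettled substrate, such as Sult4a1 and Cyp20a1, and leaves out the lipid oxidizers Cyp2c44, which fell, and Cyp2j6 and Cyp2j9, which rose, so its count gives no direction for lipid enzymes.

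The supply of cofactors and electrons to these enzymes changed in a mixed way. Of 24 tested genes 7 rose and 3 fell, with a median of 0.080. Ugdh, which makes the glucuronic acid donor, rose to 27.2 FPKM in Nd1, against 18.9 FPKM in control, and G6pdx, a source of NADPH, rose to 57.2 FPKM in Nd1, against 40.7 FPKM in control. Of the enzymes that make the sulfate donor, Papss2 fell to 9.85 FPKM in Nd1, against 17.6 FPKM in control, while Papss1 rose to 19.9 FPKM in Nd1, against 17.2 FPKM in control. Cyb5r2, a cytochrome b5 reductase, fell to 2.86 FPKM in Nd1, against 8.18 FPKM in control. Por, the electron donor of microsomal P450s, was at 34.9 FPKM in Nd1 and 37.5 FPKM in control and did not pass.

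Other detoxifying enzymes outside the chosen families gave 3 rises and 6 falls among 29 tested genes, with a median of -0.15. The falls include Cbr2, which is also counted among the sustentacular markers above. Nqo1, a quinone reductase, fell to 54.9 FPKM in Nd1, against 214 FPKM in control. Ephx1, the microsomal epoxide hydrolase that acts on products of P450s, fell to 11.7 FPKM in Nd1, against 28.4 FPKM in control. Maoa, a monoamine oxidase, rose to 2.80 FPKM in Nd1, against 1.26 FPKM in control. Adh7, an alcohol dehydrogenase of epithelia, fell to 0.24 FPKM in Nd1, against 0.84 FPKM in control, and lies under the level set for naming. The abundant Mgst3 (144 FPKM in Nd1, 169 in control) and Pon3 (131 FPKM in either group) did not pass.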

How the data were processed

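RNA of sorted olfactory sensory neurons was sequenced in 4 polyadenylated-RNA libraries made with the Illumina TruSeq kit, per the labels' protocols. Bowtie, Cuffdiff 1.3.0 and the mm9 build appear in the submitters' processing notes, while the gene annotation and read filters, not given in the sources used here, could not be described. In a single table, the authors deposited a pooled FPKM value per group, a level scaled to transcript length and mapped fragments, per the file headers. Beside it stand the authors' log2 ratio of Nd1 over control with its test statistic, p-value and q-value. In the deposited table the p-value equals the two-sided normal p of the statistic, within 2.8e-06 in tested loci above 0. The implied standard error of a log2 ratio was therefore taken as the absolute value of the ratio divided by the statistic, whose sign is opposite to that of the log2 ratio in every tested locus above 0, and its 95% interval as 1.96 standard errors on each side. Library depths are unknown, and no column holds a value per library.

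Enzyme genes were chosen by symbol pattern, and a symbol with several loci kept the locus of the highest mean FPKM. Calls are those of Cuffdiff at q under 0.05 over all 14841 tested loci. No test was run here. Medians were taken as log2(FPKM + 1) differences over tested genes whose mean reached 0.5 FPKM. Members and gene lists were chosen with earlier results of these data known. Named genes are the called members of at least 1 FPKM (up to 6 rises and 6 falls in each family), the 3 most abundant members of each family, 22 enzymes of nasal mucosa, and up to 4 called genes of each context list. Others were named after their values were seen. Gene positions follow the mm9 table, shifted by 1 at the start to be 1-based. Promoter sequences are from RefSeq on GRCm38.p6, and coding sequences from GENCODE transcripts of GRCm38. Summary functions were tested on simulated data. Python 3.11.15, pandas 2.3.3, Biopython 1.88 and matplotlib 3.10.9 were used. Alternatives covered the q threshold, a minimum change, a minimum level, the treatment of repeated loci, the pseudocount, quantile normalization and, chosen after seeing the data, leaving out joined loci.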

Additional observations from a re-analysis of the deposited data

How the results depend on the processing

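No paired analysis was possible because the table holds 1 pooled value per group, and for the same reason no replicate could be left out. Depth is unknown, so errors rest on the authors' statistic. Counts of members (11 higher, 12 lower) became 7 lower at q under 0.01, and 5 higher and 3 lower with changes of at least 2-fold. At q under 0.01 the counts became 0 for other Cyp families higher, Cyp family 4 lower and Fmo lower, and 1 for Gst higher, Gst lower and Sult higher. With a mean of at least 1 FPKM they became 2 for Cyp families 1 to 3 higher, 1 for Sult higher, 0 for Cyp family 4 lower and 1 for Fmo lower. The other 31 of 44 recomputed counts stayed within 1.5 times. Some of these were 0 in the main setting and could not rise at a stricter q or level. Medians were held to a shift of 0.1. With a pseudocount of 5 they moved to -0.041 for Cyp family 4, -0.050 for other Cyp families and -0.14 for Fmo, and with 0.1 to -0.30 for other Cyp families and -0.56 for Fmo. With a minimum mean of 2 FPKM they moved to 0.12 for Cyp family 4, -0.063 for other Cyp families, 0.14 for Gst and -0.12 for Sult. After quantile normalization they moved to -0.020 for Cyp family 4, -0.033 for other Cyp families, -0.21 for Fmo, 0.12 for Gst, 0.087 for Ugt and 0.15 for Sult, while the median of all tested loci was 0.0051, beside -0.060 as deposited. The cause was not tested. Quantile normalization also turned the median over all members to 0.0033 (-0.089 as deposited), that of Cyp families 1 to 3 to 0.0079 (-0.062 as deposited) and the ratio of summed levels over all members to 1.03 (0.970 as deposited). The medians of all members, Cyp families 1 to 3, Cyp family 4, Gst, Ugt and Sult thus changed sign in at least 1 alternative and give no direction. The medians of Fmo, Aldh and other Cyp families stayed below 0 in the alternatives run. A pseudocount added to both groups keeps the sign of each gene, so it could not turn these medians. Without a minimum level the medians of Fmo and other Cyp families rest on the same genes and could not move. A further alternative, centring on the median of all tested loci, adds a shift smaller than any of these medians. That of Fmo rests on 4 genes and could not be taken at a minimum mean of 2 FPKM, so only quantile normalization could turn it. That of other Cyp families rests on 5 genes. Ratios of sums stayed within 1.5 times in 27 of 27 cases. In families without a repeated locus above 0, counting every locus could not change the ratio. The limit of 1.5 times also allows a change of direction. For Sult the ratio went from 0.997 to 1.19 without the largest member. For single genes, too, the pseudocounts could not change a sign. Quantile normalization could, and no called member changed sign under it. Sizes did depend on the pseudocount. With 0.1 in place of 1 the log2 ratio went from 0.75 to 1.57 for Cyp2b10 and from 0.64 to 1.55 for Cyp2j9. That of Cyp2c44 went from -1.41 to -3.35. With 5 that of Aldh1l1 went from -0.60 to -0.27.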

Other observations

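Of 20 tested nuclear receptors and other regulators of these enzymes, the authors' deposited table called 2 higher and 8 lower, with 10 short of the threshold, where 16.2% of tested loci other than odorant receptors rose and 14.1% fell. The list had a median of -0.27 on the log2(FPKM + 1) scale, beside -0.060 over all tested loci and -0.037 with odorant receptors left out. Rarg, a retinoic acid receptor, fell to 83.2 FPKM in Nd1, against 155 FPKM in control, and Rxra, the partner of many nuclear receptors, fell to 6.43 FPKM in Nd1, against 12.4 FPKM in control. Rara rose to 3.67 FPKM in Nd1, against 1.56 FPKM in control. Cebpb fell to 3.99 FPKM in Nd1, against 7.39 FPKM in control. Nfe2l2, the activator of antioxidant genes, fell to 156 FPKM in Nd1, against 218 FPKM in control, and Ahr, the receptor of dioxin-like compounds, rose to 5.66 FPKM in Nd1, against 4.48 FPKM in control. The xenobiotic receptors Nr1i2 and Nr1i3 were at 0 and 0.40 FPKM in Nd1 against 0.028 and 0.50 FPKM in control, and neither was called. Nfe2l2 and Ahr are named after their values were seen.

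Of 25 transporters of drugs and conjugates 11 were tested, 1 rose and 5 fell, with a median of -0.15 and the same shares over tested loci to read against. Abcc5 rose to 39.9 FPKM in Nd1, against 31.5 FPKM in control. Slc47a1 fell to 0.53 FPKM in Nd1, against 1.13 FPKM in control, Abcg2 to 0.28 FPKM in Nd1, against 0.69 in control, Slco3a1 to 9.03 FPKM in Nd1, against 11.7 in control, and both Abcc10 and Abcc4 fell by less than 2-fold. Abcc1, the most abundant, was at 69.9 FPKM in Nd1 and 77.6 FPKM in control and did not pass. In the list of retinoid handling, 13 genes were tested. Rara rose, Rarg and Rxra fell, and none of the 10 other tested genes passed, among them Dhrs3 (24.0 FPKM in Nd1, 23.5 in control) and Rdh14 (33.6 FPKM in Nd1, 30.8 in control). Globose basal markers were tested in 2 cases, of which Kit fell, and of 2 tested endothelial markers Pecam1 rose. Mature neuron markers fell in 11 of 15 tested genes, and immature neuron markers rose in 8 of 11 and fell in 1.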
